A study of Mus musculus with 3 samples.

Results

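A set of 10 genes that restrain mitogen-activated protein (MAP) kinase signaling was followed in lumbar spinal cord microglia: 7 dual specificity phosphatases (Dusp1, Dusp2, Dusp4, Dusp5, Dusp6, Dusp7 and Dusp10) and 3 adaptor-type inhibitors (Spry1, Spry2 and Spred1). They were chosen by symbol, and all 10 were among the 27998 genes of the table. The members and the gene lists used below were chosen with earlier results of these data known, so their counts beside all genes are descriptions. The cells came from young adult Cx3cr1-creER-yfp/+ heterozygous mice on a C57BL/6 background, in which YFP is driven by the Cx3cr1 locus, and YFP (+) cells of the lumbar cord were sorted by fluorescence-activated cell sorting. The 3 groups were naive animals and animals 24 h or 48 h after sciatic nerve transection, each group being 1 library made from the pooled cords of 3 animals. Sexes were mixed in the study. All groups therefore carried the same heterozygous reporter allele, and circulating monocytes, which also express Cx3cr1, could enter the gate. A later time point and the conditional knockout libraries were not analysed here.

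MAP kinases such as ERK, JNK and p38 are switched on by phosphorylation of a threonine and a tyrosine, and the dual specificity phosphatases listed here remove both phosphates. Sprouty and Spred proteins act further upstream, between receptor tyrosine kinases and the Ras and Raf steps. Several of these inhibitors are transcribed in response to the kinases they oppose, so that their transcripts are widely used as a record of recent MAP kinase activity. Microglia depend on CSF1R, a receptor tyrosine kinase that signals partly through ERK.

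Each cell carries a barcode with a suffix of 1, 2 or 3, and no source used here says which suffix is which time point, so the libraries are called library 1, library 2 and library 3 without a time. With 1 library for each time point, no test between libraries was possible. All intervals are 95% intervals of counting error only, which leave out the spread between animals. Intervals of UMI counts and of their ratios also leave out the spread between cells beyond random counting, and are too narrow where that spread is large. Library 1 held 609 cells with a median of 2218 unique molecular identifiers (UMIs, each a counted transcript), library 2 held 3591 cells with a median of 5952, and library 3 held 3322 cells with a median of 5742. Because a rare transcript is found more often in a deeper cell, shares of cells were compared after each cell had been thinned at random to 2000 UMIs, which left 408, 3569 and 3284 cells. The microglia markers P2ry12 and Tmem119 were found in each library, whereas the summed markers of monocytes lay between 3.32 and 8.93 UMIs per 1000000 UMIs (CPM) and those of perivascular macrophages between 0.745 and 2.28 CPM. Higher sums were found for markers of astrocytes (102 to 167 CPM), oligodendrocytes (64.2 to 78.9), B cells (39.2 to 54.5) and endothelial cells (15.0 to 35.0). The lists for neutrophils, T and NK cells, neurons and red blood cells reached at most 14.3 CPM. Sums were uneven within lists. In library 1, 2 of 4 astrocyte, 2 of 3 B cell and 3 of 4 endothelial markers had no UMI. The highest share of thinned cells with a marker of these lists was 24.3%, 9.07% and 4.90% there. Oligodendrocyte markers ran from 0.245% to 8.09%. The part of these transcripts in the levels of the members was not tested. A total of 25 barcodes occurred in more than 1 library (51 cells), and 384 cells held at least 2 markers of another cell type. The 4 members at least 2 times higher in library 3 than in library 2 stayed so without either set of cells.

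Promoter sequences are shown for Dusp1, Dusp2, Dusp6 and Spry1, the 4 members at least 2 times higher in library 3 than in library 2 on the scale of log2(CPM + 1), to show what lies directly before their start sites. RefSeq (GRCm38.p6) windows were matched for 9 of the 10 members, all but Dusp4, and the 250 bases before each start were searched on both strands for 8 motifs. The capitals mark matches to a full cyclic AMP response element (CRE, TGACGTCA), its core (TGACG) or an E-box (CACGTG). They run from 5′ to 3′ on the strand of the gene, at chr17:26508520-26508722 (minus strand) for Dusp1, chr2:127335909-127336158 (plus) for Dusp2, chr10:99262981-99263230 (plus) for Dusp6 and chr3:37639697-37639946 (plus) for Spry1. The last 47 bases of the Dusp1 window overlap an annotated exon and are not printed.
Dusp1: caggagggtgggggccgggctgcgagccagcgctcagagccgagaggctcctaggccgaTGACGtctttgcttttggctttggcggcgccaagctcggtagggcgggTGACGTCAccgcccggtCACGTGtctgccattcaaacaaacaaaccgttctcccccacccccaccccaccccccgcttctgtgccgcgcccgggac
Dusp2: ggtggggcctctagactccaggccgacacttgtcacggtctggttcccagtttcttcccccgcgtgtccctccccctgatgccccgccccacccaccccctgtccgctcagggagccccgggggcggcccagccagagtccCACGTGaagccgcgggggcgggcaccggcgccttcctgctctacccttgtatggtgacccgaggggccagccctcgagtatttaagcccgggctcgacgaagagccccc
Dusp6: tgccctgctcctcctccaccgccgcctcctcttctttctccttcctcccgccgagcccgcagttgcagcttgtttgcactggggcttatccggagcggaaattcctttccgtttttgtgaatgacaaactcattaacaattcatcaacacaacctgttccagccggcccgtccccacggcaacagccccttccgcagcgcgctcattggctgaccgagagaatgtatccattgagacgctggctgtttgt
Spry1: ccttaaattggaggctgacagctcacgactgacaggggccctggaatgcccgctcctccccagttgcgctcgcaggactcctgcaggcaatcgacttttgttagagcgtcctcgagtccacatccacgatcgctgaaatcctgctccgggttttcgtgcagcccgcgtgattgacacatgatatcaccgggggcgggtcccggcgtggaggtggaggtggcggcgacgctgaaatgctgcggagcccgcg

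The Dusp1 window held 1 full CRE, 143 to 136 bases before the start, and 3 cores, of which 2 lie inside that full element. A full CRE was present in 1.55% of all 32851 windows and a core in 17.8%. Dusp1 and Dusp2 each held 1 E-box, a motif found in 6.02% of windows. No capitals appear in the Dusp6 and Spry1 windows, which held no match to these 3 motifs. Dusp5 held 2 serum response factor (SRF) CArG boxes, a motif present in 1.47% of windows, next to 1 CRE core. No window of the 9 members matched the AP-1 site TGANTCA (6.75% of all windows), the TATA box TATAAA (12.4%) or the ETS core CCGGAA (12.03%). The GC box GGGCGG, held by 32.7% of windows, was found in Dusp1, Dusp2, Dusp5, Dusp10, Spry1 and Spred1. These are matches of letters and were not tested for binding.

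Dusp1 (MKP-1) is a nuclear phosphatase for p38, JNK and ERK and an immediate early gene, and it showed the largest difference of the members. The gene lies on chromosome 17 (26505590 to 26562128, GRCm38, minus strand). Its annotated span overlaps Gm8225 and Ergic1 on the opposite strand, and AC122252.4 and AC122252.1 on its own strand. The promoter window printed above lies inside this span, because the window is set by the RefSeq start and the span by GENCODE. Library 1 held 19.4 CPM of Dusp1 (interval 12.6 to 28.4), library 2 held 56.4 CPM (53.4 to 59.5) and library 3 held 2013 CPM (1993 to 2033). The level in library 3 stood 35.7 times above library 2 (33.8 to 37.7) and 104 times above library 1 (71.0 to 159), and library 2 stood 2.91 times above library 1 (1.98 to 4.48). Among 8258 genes with at least 10 CPM in library 2 or 3, Dusp1 had the second largest ratio of library 3 to library 2, with rank 2 behind Hspb1, which encodes a small heat shock protein. At equal depth a Dusp1 UMI was found in 3.68% of library 1 cells (2.07 to 5.99), 10.7% of library 2 cells (9.73 to 11.8) and 96.0% of library 3 cells (95.3 to 96.7). Nearly every cell of library 3 thus held the transcript, where most cells of the other libraries held none at this depth. No cell population in the table lacks Dusp1 by definition, so the part of free RNA in these shares was not tested.

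Dusp2 (PAC-1), another nuclear phosphatase and best known from activated immune cells, was much rarer. It lies on chromosome 2 (127336159 to 127338376) and was counted 2 times in library 1 (1.49 CPM), 66 times in library 2 (2.74 CPM) and 384 times in library 3 (19.4 CPM). The ratio of library 3 to library 2 was 7.09 (5.45 to 9.35). At equal depth 0.245%, 0.476% and 3.59% of cells held a UMI in libraries 1, 2 and 3. Library 3 was highest, as for Dusp1. The order of libraries 1 and 2 was not resolved, with a ratio of library 2 to library 1 of 1.84 (0.489 to 15.5). Even in library 3 most cells held no Dusp2 UMI.

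The 2 remaining nuclear phosphatases were close to the limit of detection. Dusp5, a nuclear phosphatase specific for ERK (chromosome 19, 53529109 to 53542431), was counted 0, 12 and 39 times in libraries 1, 2 and 3. Its level in library 3 was 3.96 times that in library 2 (2.03 to 8.31), and against library 1 no fold is given, because the limit of 3 counts there (2.23 CPM) exceeds the 1.97 CPM of library 3. Dusp4, which acts on ERK and JNK (chromosome 8, 34807297 to 34819894), was counted 0, 5 and 2 times. A difference in Dusp4 was not detectable at this depth.

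Dusp6 (MKP-3) is the cytoplasmic phosphatase that acts on ERK and a common readout of ERK activity, and it was the member found in most cells of libraries 1 and 2. The gene lies on chromosome 10 (99263231 to 99267489). Library 1 held 450 CPM of Dusp6 (415 to 487), library 2 held 266 CPM (260 to 273) and library 3 held 811 CPM (799 to 824). The lowest level was thus in library 2, unlike for Dusp1. Library 3 stood 3.05 times above library 2 (2.96 to 3.14) and 1.80 times above library 1 (1.66 to 1.96), and library 1 stood 1.69 times above library 2 (1.55 to 1.84). At equal depth 57.1% of library 1 cells (52.1 to 62.0), 42.3% of library 2 cells (40.7 to 43.9) and 76.9% of library 3 cells (75.4 to 78.4) held a Dusp6 UMI.

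Dusp7 (MKP-X), the near relative of Dusp6 in the ERK-specific group, differed far less. It lies on chromosome 9 (106368632 to 106375724), and its level was 78.9 CPM in library 1 (64.6 to 95.5), 48.6 CPM in library 2 (45.8 to 51.4) and 59.2 CPM in library 3 (55.8 to 62.7). Library 3 was 1.22 times library 2 (1.12 to 1.32), and library 1 was 1.63 times library 2 (1.32 to 1.98). In CPM the order of libraries 1 and 3 for Dusp7 is the opposite of that for Dusp6, but the difference depended on the scaling. The log2 ratio of library 3 to library 1 was -0.41 with total UMIs and -0.19 with the trimmed mean of M values. At equal depth 14.5% (11.2 to 18.3), 9.05% and 11.6% (10.5 to 12.7) of cells in libraries 1, 2 and 3 held a Dusp7 UMI, so the intervals of libraries 1 and 3 overlapped. Dusp10 (MKP-5), which acts on JNK and p38, was counted 3, 37 and 32 times, or 2.23, 1.54 and 1.62 CPM. It lies on chromosome 1 (184013302 to 184075636) and overlaps the opposite-strand gene 1700056E22Rik. The ratio of library 3 to library 2 was 1.05 (0.636 to 1.74), an interval that includes 1.

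Among the upstream inhibitors, Spry1 stood apart. Spry1, which dampens Ras signaling below receptor tyrosine kinases (chromosome 3, 37639947 to 37644598), was counted 4 times in library 1 (2.98 CPM), 104 times in library 2 (4.32 CPM) and 415 times in library 3 (21.0 CPM). Library 3 was 4.86 times library 2 (3.91 to 6.09), and at equal depth 0.490%, 0.700% and 3.96% of cells held a UMI. Spry2, on chromosome 14 (105891947 to 105896819), was counted 1, 2 and 0 times, and 0 of 3284 thinned cells in library 3 allows, by the limit of 3 counts, a share of cells with a UMI of up to 0.0914%. Spred1, which blocks Raf activation by Ras (chromosome 2, 117121374 to 117182279), was at 52.9 CPM in library 1 (41.3 to 66.7), 39.6 CPM in library 2 (37.2 to 42.2) and 43.9 CPM in library 3 (41.0 to 46.9). Its ratio of library 3 to library 2 was 1.11 (1.01 to 1.22). The shares of cells with a Spred1 UMI at equal depth were 9.80%, 6.70% and 8.80%, and with another random draw the last 2 were 7.76% and 8.77%.

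**Figure D1:**
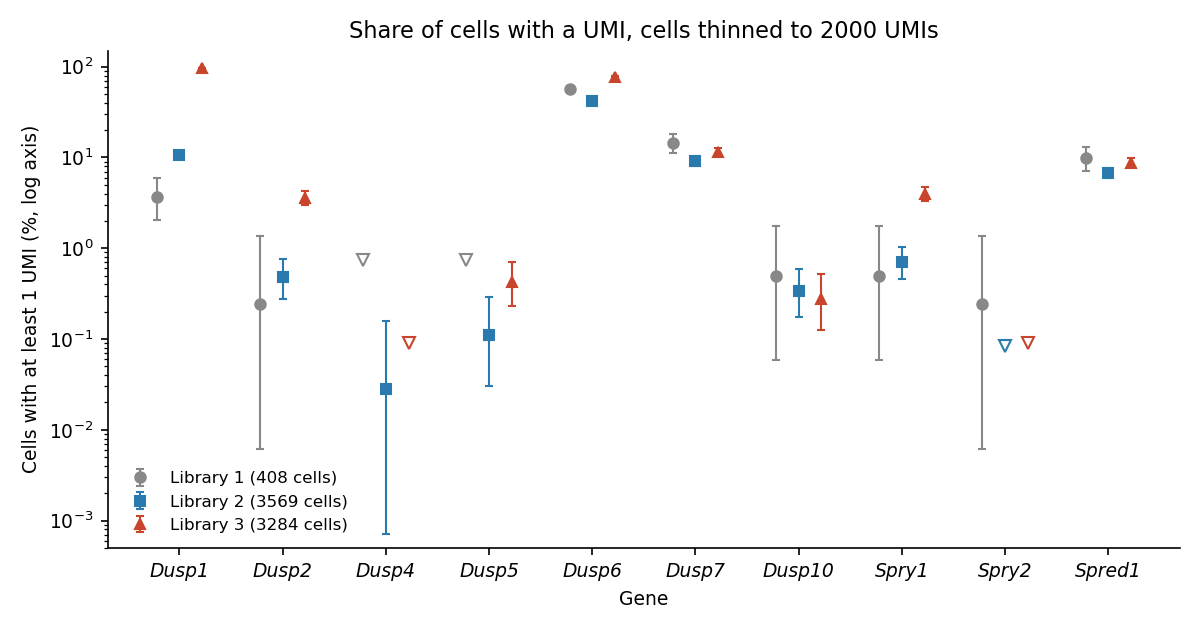
Share of cells with at least 1 UMI of each gene (percent, log axis) in libraries 1, 2 and 3, each cell thinned to 2000 UMIs. Bars are exact 95% binomial intervals of counting error, and open triangles mark genes with no UMI, drawn at the limit that 3 cells would give. Dusp1 reaches 96.0% in library 3, and Dusp6 has the highest share of the 10 genes in libraries 1 and 2.

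The shares of cells show 3 patterns among the members. Dusp1, Dusp2 and Spry1 had their highest share in library 3 and their lowest in library 1. Dusp2 and Spry1 were found in only 3.59% and 3.96% of library 3 cells. In library 1 they were found in 1 and 2 thinned cells, too few to order libraries 1 and 2. Dusp6 had at least 42.3% in each library, with library 2 lowest and library 3 highest. Dusp7 and Spred1 were present in a minority of cells everywhere with library 2 lowest. In 6 of the 10 members the interval of the share in library 3 lay above that in library 2, against 11.0% of the 8258 genes. For Dusp7 and Spred1, which are among the 6, the difference in share was small. With another random draw the count was 5 and Spred1 was no longer among them, with 7.76% in library 2 and 8.77% in library 3.

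Set against all genes, 4 of the 10 members (Dusp1, Dusp2, Dusp6 and Spry1) were at least 2 times higher in library 3 than in library 2 on the scale of log2(CPM + 1), where 1.54% of 8258 genes were higher and 2.92% lower by that much. Dusp1 had a log2 ratio of 5.13, Dusp2 2.45, Spry1 2.05 and Dusp6 1.60. Dusp6 was the member nearest the 2-fold limit from inside, and Dusp5, with 0.99, was just outside it. No member was lower by 2 times. The median over the 10 members was 0.63, and over all 8258 genes -0.03. The 8258 genes had at least 10 CPM in library 2 or 3, which Dusp4, Dusp5, Dusp10 and Spry2 did not reach. The pseudocount draws the ratios of such genes toward 0. Dusp2 (2.74 CPM in library 2) and Spry1 (4.32 CPM) reached 10 CPM in library 3 only, the library in which they were high. Without a pseudocount, and with Spry2 left out because it had at most 3 counts in both libraries, the median over 9 members was 1.61. Between library 3 and library 1, 4 members (Dusp1, Dusp2, Dusp5 and Spry1) were higher by at least 2 times, where 3.71% of 8512 genes were higher and 6.34% lower, and the median was 0.49 over the members and -0.12 over all genes. For Dusp5, with 0 UMIs in library 1, passing rests on the pseudocount. Without a pseudocount, with such genes at the limit of 3 counts and genes at or under it in both libraries left out, the median was 0.34 over 8 members. That limit (2.23 CPM) lies above the 1.97 CPM of Dusp5 in library 3. Dusp5 therefore enters as lower in library 3 though it was not found in library 1, and the size of this median rests on the limit. The 2 UMI counts of Dusp2 and the 4 of Spry1 in library 1 make these ratios imprecise, with fold intervals of 3.59 to 108 and 2.73 to 26.0. Between library 2 and library 1, Dusp1 alone passed, at 2.91 times, where 5.49% of 8655 genes were higher and 4.82% lower. The median over the members was -0.04 there, and -0.54 over 9 members without a pseudocount and with genes at 0 at that limit. The limit exceeds the library 2 levels of Dusp4 (0.207 CPM) and Dusp5 (0.498 CPM). Both therefore enter as lower in library 2 though neither was found in library 1, so the sign of this median cannot be read. When the libraries were scaled by trimmed mean of M values (TMM) in place of total UMIs, the shares of all genes became 6.54% higher and 3.16% lower for library 3 to library 1, and 7.89% higher and 2.53% lower for library 2 to library 1. Under that scaling the log2 ratio of Dusp6 from library 3 to library 1 moved from 0.85 to 1.07, past the 2-fold limit.

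**Figure D2:**
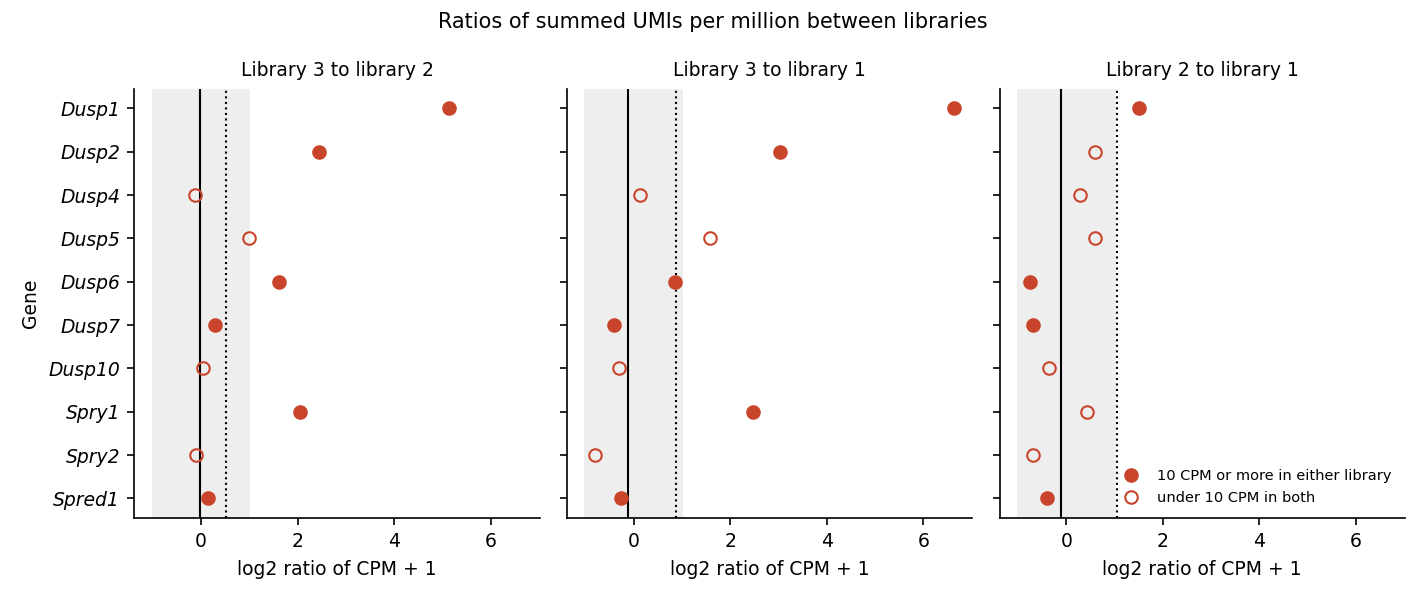
Log2 ratio of CPM + 1 between each pair of libraries for the 10 genes, with filled points for genes with at least 10 CPM in either library and open points for the others. The solid line is the median and the dotted line the 95th percentile over all genes at that level, and the grey band spans less than a 2-fold difference in either direction. Dusp1 stands at 5.13 for library 3 to library 2, against a median of -0.03 over all genes.

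Most other genes of the pathway with at least 10 CPM differed by less than 2 times between libraries 2 and 3, as did most genes at that level. Of all 8258 such genes, 1.54% were higher in library 3 and 2.92% lower by that much. Of 24 genes of the MAP kinase cascade itself, from Ras to the kinases, 18 had at least 10 CPM in library 2 or 3, and none of the 18 was 2 times higher or lower in library 3 than in library 2. Their median log2 ratio was -0.03, and the largest were those of Map2k1 (0.39), which encodes the ERK kinase MEK1, Hras (-0.36) and the adaptor Grb2 (0.32). Of 13 other dual specificity phosphatases, 7 reached 10 CPM and 1 was 2 times higher. That gene was Dusp18, at 5.21, 4.32 and 35.3 CPM in libraries 1, 2 and 3 (log2 ratio of library 3 to library 2, 2.77). It reached 10 CPM in library 3 only. Dusp16, a phosphatase for JNK and p38, had a ratio of 0.50 and Dusp19 of -0.38. None of the 4 other Sprouty and Spred genes reached 10 CPM in library 2 or 3.

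Of 14 other negative regulators, 11 reached 10 CPM and 1 was 2 times higher, namely Socs3, the feedback inhibitor of cytokine receptors that signal through STAT3. Socs3 had 42.4, 96.0 and 544 CPM in libraries 1, 2 and 3 (log2 ratio of library 3 to library 2, 2.49), Errfi1, an inhibitor of the EGF receptor, had a ratio of 0.73, and Rasal3, a Ras GTPase-activating protein, of 0.31. Of 14 genes known to act downstream of ERK, 9 reached 10 CPM, with a median log2 ratio of 0.08 and a lowest of -0.18. Of these, 2 were 2 times higher, Phlda1 (2.12) and the survival gene Mcl1 (1.28), while the cyclin gene Ccnd1 had 0.48. Phlda1, at 2.57 CPM in library 2, reached 10 CPM in library 3 only.

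The immediate early genes, transcription factors and regulators that many stimuli induce within minutes, did differ together. Of 21 listed genes, 18 had at least 10 CPM in library 2 or 3. All 18 were 2 times higher in library 3, with a median log2 ratio of 3.35. Egr2, at 2.70 CPM in library 2, reached 10 CPM in library 3 only. Klf4 (4.74), Fosb (4.51) and Fos (4.46) had the largest ratios, and the summed early gene UMIs per thinned cell averaged 5.13 in library 1, 6.38 in library 2 and 54.9 in library 3. Of 7 heat shock genes with at least 10 CPM, 3 were at least 2 times higher in library 3 than in library 2. These were Hspb1 (5.25), Hspa1a (4.50) and Dnajb1 (1.95), and the lowest log2 ratio of the 7 was 0.15. Hspb1 (0.581 CPM in library 2) and Hspa1a (5.60 CPM) reached 10 CPM in library 3 only, so their place among the 7 rests on their level there. All 10 mitosis genes were at least 2 times lower in library 3 than in library 2, led by Birc5 (-5.44), Ube2c (-5.40) and Nusap1 (-5.10), as were 6 of 10 replication genes, led by Rrm2 (-4.34), Tyms (-2.27) and Lig1 (-1.80), and the highest log2 ratio of the 10 replication genes was -0.26. The part of these differences in the levels of the phosphatases was not tested.

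The number of UMIs per cell shows how evenly the difference was spread. In library 3, cells at equal depth held a median of 3 Dusp1 UMIs (5th percentile 1, 95th percentile 9, highest 19), and 67.0% of cells held at least 3. In library 2, 89.3% of cells held no Dusp1 UMI, 9.83% held 1 and 0.056% held at least 3. No library 2 cell held more than 3 Dusp1 UMIs, the number in the median cell of library 3. Dusp6 overlapped more: 23.1% of library 3 cells and 57.7% of library 2 cells held none. The variance divided by the mean (Fano factor, about 1 for random counting) was 1.72 for Dusp1 and 1.42 for Dusp6 in library 3, where the median over 3020 genes found in at least 10% of cells was 1.01 and the 95th percentile 1.10. Both genes were among the most unevenly spread, with 99.4% and 98.9% of genes below them, although both also stood high in mean level, with 98.4% and 94.6% of genes below them. In library 2 their factors were 1.06 and 1.05, below the 95th percentile of 1.08. Dusp7 in library 3 had a factor of 1.01.

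**Figure D3:**
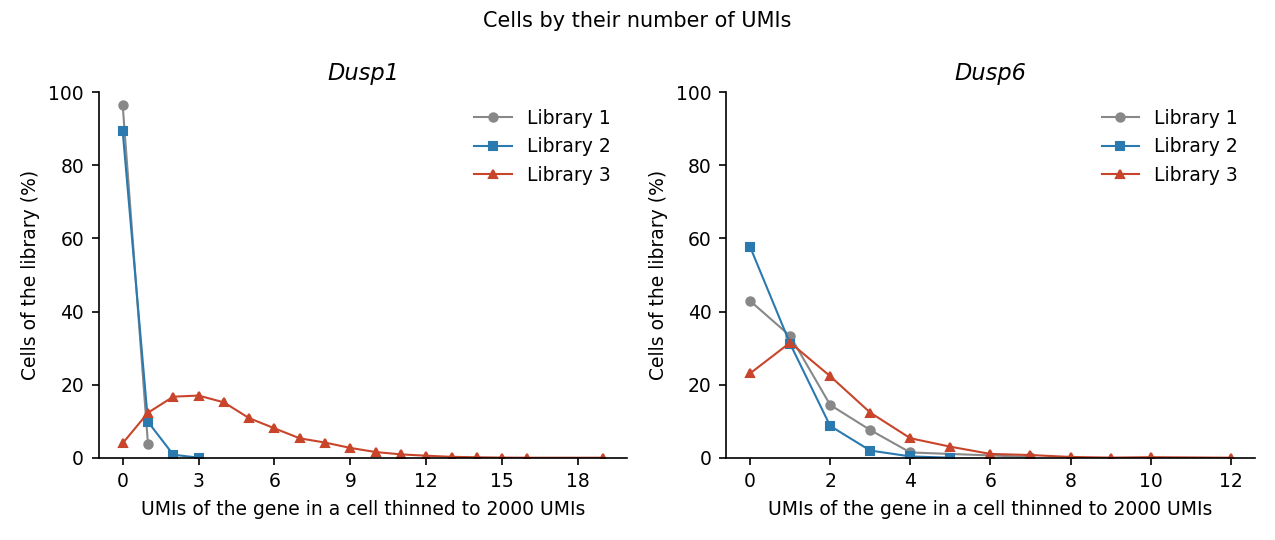
Percentage of cells in each library by the number of Dusp1 (left) and Dusp6 (right) UMIs, after thinning each cell to 2000 UMIs. For Dusp1, 96.3% of library 1 cells and 89.3% of library 2 cells lie at 0, whereas 3.99% of library 3 cells do.

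Counted over all 10 members, 30.9% of library 1 cells, 43.4% of library 2 cells and 0.731% of library 3 cells held none of the genes at equal depth. The mean summed count was 1.25, 0.862 and 5.93 UMIs per cell. Dusp6 made up 74.4% of these UMIs in library 1, 65.3% in library 2 and 28.1% in library 3, and Dusp1 made up 2.95%, 13.6% and 66.8%. The member that contributed most transcripts was therefore Dusp6 in libraries 1 and 2 and Dusp1 in library 3.

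Within library 3, Dusp1 and Dusp6 varied together across cells. The Pearson correlation of log2(UMIs + 1) was 0.131 over 3284 cells, higher than 99.995% of the 4558690 pairs of genes found in at least 10% of its cells, whose median was -0.0002. Cells share library and depth, and the value is a description. The pairs were not matched for mean level, in which Dusp1 and Dusp6 stood above 98.4% and 94.6% of genes. The part of level in this rank was not tested. Both genes were found in 2431 cells, where the product of their shares gives 2425. In library 2 the same pair had a correlation of 0.0165 over 3569 cells, which lay above 83.5% of pairs. Dusp1 averaged 0.117 UMIs per thinned cell there, against 3.96 in library 3. Dusp7, at 0.123 UMIs per cell in library 3, had values of -0.0034 with Dusp1 and -0.0181 with Dusp6. In counts this sparse, values near 0 do not show that genes vary apart. Dusp2 and Spry1 were too rare for a correlation, and 31 library 3 cells held both of them before thinning, where the product of their shares gives 34.6.

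The genes most like Dusp1 in library 3 were Fos (0.382), Jun (0.348) and Klf2 (0.307), and those most like Dusp6 were Fos (0.202), Jun (0.199) and Junb (0.161), over 3284 cells. All 17 early genes found in at least 10% of cells had a positive correlation with Dusp1 (0.0192 to 0.382) and with Dusp6 (0.0053 to 0.202). The 95th percentile over all 3019 genes was 0.0315 with Dusp1 and 0.0323 with Dusp6, above the lowest of these early gene values. Of the 17, 13 were positive with Dusp7, at most 0.0337, and its nearest genes were Birc6 (0.0626), Epc1 (0.0604) and Prkar1a (0.0550). In library 2 the nearest genes of Dusp1 were Fam96b (0.0724), Pbrm1 (0.0565) and Dnajc8 (0.0552). Of 11 early genes compared there, 7 were positive with Dusp1 (at most 0.0534) and 9 with Dusp6 (at most 0.0546). Correlations this weak in sparse counts are no finding. In library 1, with 408 cells, Dusp6 was nearest to Cggbp1, Hcls1 and BC031181 (0.169 to 0.174) and Dusp7 to Taf7, Ssu72 and Klhl6 (0.202 to 0.222). The 99th percentile over all pairs of genes was 0.122 there, and the lowest value of Dusp6 was -0.190, with Naa15. As the highest of 3165 values for each gene, these nearest values are no finding either.

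Cells of library 3 were next split by the summed UMIs of the early gene list, which holds none of the 10 members. In the third of cells strongest for early genes (1094 cells, mean 78.5 early UMIs), Dusp1 had 5.45 UMIs per cell, and in the weakest (mean 32.9) it had 2.49, a ratio of 2.19 (2.09 to 2.29). Dusp6 had 2.12 and 1.22 UMIs per cell, a ratio of 1.74 (1.63 to 1.86). The rarer Spry1 had a ratio of 3.17 (1.96 to 5.32) from 73 and 23 UMIs, and Dusp2 of 2.11 (1.31 to 3.47) from 57 and 27 UMIs. Dusp7 (1.10, 0.861 to 1.41) and Spred1 (1.13, 0.836 to 1.52) had intervals that include 1. The interval lay above 1 for 4 of the 6 members with at least 10 CPM in library 3. It did so for 3.65% of the 7789 genes at that level outside the early gene list, members included, whose median ratio was 0.959. These 4 members were also the ones at least 2 times higher in library 3 than in library 2, which is a description. Dusp2 and Spry1 reached 10 CPM in library 3 only. Dusp4, Dusp5, Dusp10 and Spry2, with at most 5 UMIs in either group, were too rare to judge. Within the weak, middle and strong groups taken alone, the correlation of Dusp1 and Dusp6 was 0.0187, 0.0643 and 0.0127, lower than the 0.131 over all cells. Grouping by a sum that rises with both genes narrows their range, so lower values within groups cannot show what the genes share. In library 2 the ratios were 1.28 for Dusp1 (1.005 to 1.62) and 1.22 for Dusp6 (1.10 to 1.36).

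**Figure D4:**
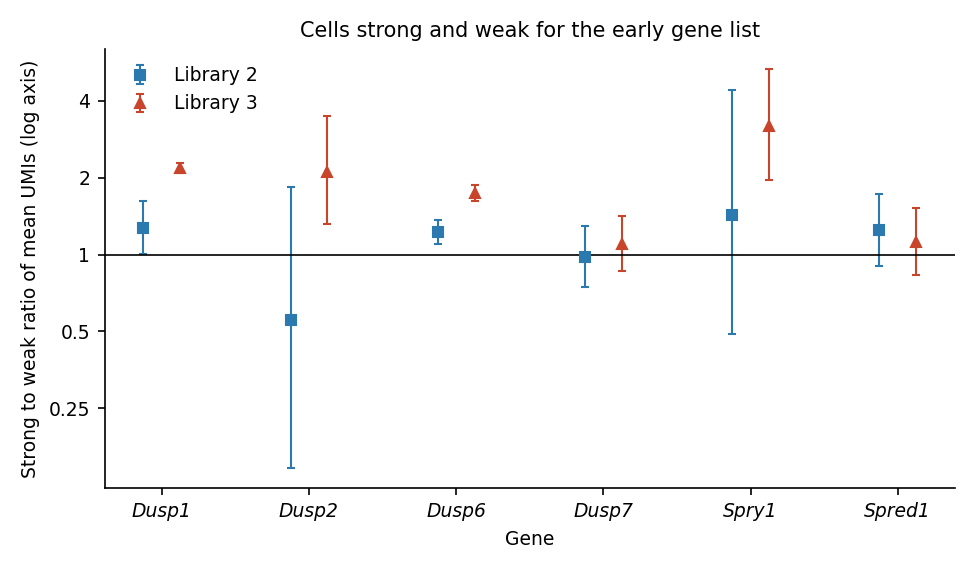
Ratio of mean UMIs per thinned cell between the third of cells strongest and the third weakest for the summed early gene list (log axis), in libraries 2 and 3, with exact 95% intervals of counting error. In library 3 the intervals of Dusp1, Dusp2, Dusp6 and Spry1 lie above 1 and those of Dusp7 and Spred1 include it.

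Ordering library 3 cells by their own Dusp1 count gave the following values. Cells with 0 Dusp1 UMIs (131 cells) had a mean of 40.3 early gene UMIs (39.2 to 41.4) and those with 7 or more (521 cells) had 72.5 (71.7 to 73.2). Mean Dusp6 over these groups was 1.38 UMIs (1.19 to 1.60) in the lowest and 2.11 (1.99 to 2.24) in the highest. Dusp7 was 0.115 and 0.132, with overlapping intervals. Library 3 cells without a Dusp1 UMI therefore still held more early gene UMIs on average than the 6.38 of library 2.

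**Figure D5:**
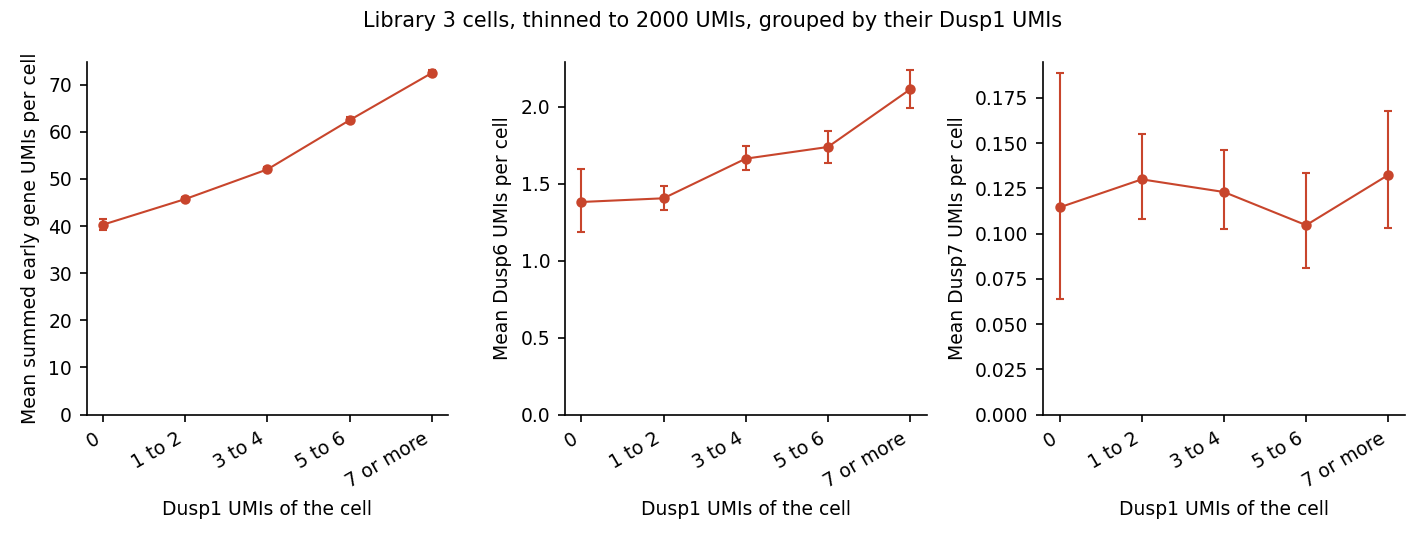
Mean summed early gene UMIs (left), Dusp6 UMIs (middle) and Dusp7 UMIs (right) per cell of library 3, grouped by the number of Dusp1 UMIs of the cell, with exact 95% Poisson intervals. Early gene UMIs go from 40.3 to 72.5 and Dusp6 from 1.38 to 2.11, while the Dusp7 intervals overlap throughout.

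Depth and proliferation were examined as further differences among cells. In library 3, Dusp1 was at 1668, 1942, 2165 and 2099 CPM in 4 equal groups of cells from the fewest to the most UMIs, so that the shallowest cells still lay far above library 2. Dusp6 in library 2 was at 301 CPM in the shallowest of 4 such groups and 233 CPM in the deepest. Cells with at least 3 UMIs of the mitosis list numbered 472 in library 2 and 5 in library 3. Those of library 2 had 0.462 Dusp6 UMIs per thinned cell, against 0.553 in 530 cells without mitosis or replication UMIs, a ratio of 0.835 (0.698 to 0.999). The interval reached 1.02 when cells were thinned to 4000 UMIs. Over the same cells the ratio was 1.26 (0.868 to 1.83) for Dusp1, 0.749 (0.483 to 1.15) for Dusp7 and 1.12 (0.714 to 1.76) for Spred1. When cells were thinned to 4000 UMIs, the ratio of Dusp1 turned to 0.772 (0.539 to 1.14) and that of Dusp7 was 0.927 (0.607 to 1.48). With at least 5 mitosis UMIs required, Dusp7 had a ratio of 0.434 (0.167 to 0.953). In 276 cells with replication UMIs but few mitosis UMIs, the ratio was 1.52 (1.002 to 2.28) for Dusp1, 1.04 (0.848 to 1.26) for Dusp6 and 0.505 (0.266 to 0.905) for Dusp7, the latter from 15 UMIs.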

How the data were processed

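The authors deposited UMI counts per gene and cell, not normalized, in a single matrix (27998 genes, 7522 cells) that joins 3 libraries prepared with 10x Genomics 3′ chemistry. Cell Ranger 2.1.1 and mm10 are named in the submitters' processing notes, with no role. Any down-sampling of reads at that joining is not given in the sources used here. Every deposited cell was kept, doublets were excluded in the sort according to the study's methods, and no doublet caller was run. UMIs were summed by barcode suffix and scaled to CPM (per 1000000 UMIs), and ratios were taken as log2(CPM + 1). A UMI marks 1 transcript, so no length scaling was used. Genes with at least 10 CPM in either library formed the background, and a difference of 2 times stood in for a call. Shares have exact Clopper-Pearson and counts exact Poisson intervals (95%), and ratios exact conditional intervals. For 0 counts the limit is 3 counts. Cells with at least 2000 UMIs were thinned without replacement (seed 1), leaving out 201, 22 and 38 cells of libraries 1, 2 and 3. Strong and weak cells were the upper and lower of 3 equal groups by summed early gene UMIs. Every member was named, with the 3 nearest genes of each member found in at least 10% of cells and the 3 largest ratios in each list, except that the genes nearest Dusp6 in library 2 are not reported here. Members and gene lists were chosen with earlier results of these data known. Gene positions are from GENCODE M21, in which 27645 of 27998 identifiers were found, and promoters from RefSeq. The counting annotation may differ and strand use in counting is not given. The steps were tested on simulated data. Alternatives were other scalings (TMM of edgeR 4.0.16, median of ratios of DESeq2 1.42.0), pseudocounts, cell filters, thinning depths and draws. R 4.3.3, Python 3.11.15, pandas 2.3.3, scipy 1.17.1, numpy 2.4.6 and matplotlib 3.10.9 were used.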

Additional observations from a re-analysis of the deposited data

How the results depend on the processing

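No paired analysis was possible because each time point has 1 library, which also means that leaving out a replicate could not be done. The count of members at least 2 times higher in library 3 was 4 or 5 under every alternative, against library 2 as against library 1, with Dusp5, Dusp6 or, with a pseudocount of 0.1, Dusp4 as the added gene. Between library 2 and library 1 the count was 1, and it became 3 with a pseudocount of 0.1, which adds Dusp4 and Dusp5, and 2 with a threshold of 1.5 times. The median log2 ratio of the members lay between 0.63 and 0.95 for library 3 to library 2 and between 0.42 and 0.93 for library 3 to library 1, under the scalings, pseudocounts above 0, cell filters and thinning tried. For library 2 to library 1 it lay between -0.09 and 0.19, so it took both signs. Without a pseudocount and with genes at 0 at the limit of 3 counts, over the 8 or 9 members with more than 3 counts in either library, the medians were 1.61, 0.34 and -0.54. In library 1 this limit lies above the levels of Dusp4 and Dusp5 elsewhere. The size of the 0.34 and the sign of the -0.54 rest on it and cannot be read. TMM scaling moved the median of all genes from -0.12 to 0.11 for library 3 to library 1 and from -0.11 to 0.08 for library 2 to library 1, and no member with at least 10 CPM changed sign. The log2 ratio of library 3 to library 2 stayed between 5.06 and 5.18 for Dusp1, 2.40 and 2.78 for Dusp2, 2.03 and 2.29 for Spry1 and 1.56 and 1.65 for Dusp6. The number of members whose share in library 3 had an interval above that of library 2 fell from 6 to 3 when at least 2 UMIs were required, and was 4 to 6 otherwise. The correlation of Dusp1 and Dusp6 in library 3 was 0.213 when cells were thinned to 4000 UMIs, and 0.122 to 0.145 under the other alternatives. Dusp1 and Dusp6 were the members above the 95th percentile of the Fano factor at each depth and draw tried. Depth limits what can be said of Dusp4, Dusp5, Dusp10 and Spry2, which had at most 39 UMIs in any library, and of all members in library 1, which held 1343055 UMIs.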
